A study of Mus musculus with 18 samples.

Results

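Spleen transcripts were compared between mice given gut microbiota of AOS-treated donors (HS_AOSFMT) and mice given gut microbiota of control donors (HS_conFMT), both by faecal microbiota transplant (FMT). The 6 libraries, 3 in each group, were chosen by their labels out of 18 in the series, and 12969 of the 19326 genes listed were compared, namely those with at least 1 FPKM in at least 3 of the 18 libraries. FPKM relate the fragments of a transcript to its length and to the mapped total. The mice of both groups were of the outbred ICR strain, were 10 weeks old per the labels, and had received a high fat diet and streptozotocin (STZ), a toxin of insulin-producing cells. In HS_AOSFMT the label adds AOS at 10 mg/kg to the transplant. The abbreviation AOS, the number of donors, the sex of the mice and the hour at which the spleens were collected are not stated.

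The comparison asks what the treatment of the donors changed, since the transplant itself was common to both groups. Diet and STZ without a transplant (HS) and untreated mice (control) served as further points of comparison, with 3 libraries each. The labels do not state that the 3 libraries of a group came from separate animals, and p-values then reflect library-to-library spread alone, which may be technical. The spleen filters blood in its red pulp, where macrophages take up aged red cells and recycle their iron, and it holds B and T lymphocytes in its white pulp. In mice it also makes red cells, neutrophils and platelets. A transplant transfers gut bacteria and what they release, and splenic cells can respond to such material in the circulation as well as to hormones and to the daily rhythm.

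Summed FPKM ran from 666441 to 707011 in HS_AOSFMT and from 673534 to 802269 in HS_conFMT, and the file holds no counts, so depth is unknown. Across genes, though genes do not count as replicates, Spearman correlations were 0.985 to 0.989 among the HS_AOSFMT libraries, 0.974 to 0.985 among the HS_conFMT libraries and 0.969 to 0.981 between the groups. HS_conFMT 2 stood apart from its group on the first principal component, which held 33.0% of the variance: the HS_AOSFMT libraries lay at 30.8, 21.8 and 25.7, and the HS_conFMT libraries at -2.92, 25.3 and -7.52. Genes of the pancreatic exocrine cells, which do not belong to spleen, took 0.00444%, 0.00374% and 0.0119% of the summed FPKM in HS_AOSFMT 1, 2 and 3, against 0.0437%, 0.0133% and 0.617% in HS_conFMT 1, 2 and 3. Defining spleen markers were present in each library, such as the T cell gene Cd3d (47.6 to 53.3 FPKM in HS_AOSFMT and 29.9 to 41.8 in HS_conFMT) and the red pulp macrophage gene Spic (42.4 to 56.0 in HS_AOSFMT and 42.1 to 48.2 in HS_conFMT).

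Of the 12969 genes, limma called 759 at an adjusted p under 0.05 (5.85%), with 624 higher (4.81%) and 135 lower (1.04%) in HS_AOSFMT. The changes are on the log2(FPKM + 1) scale, which understates those of low genes. The median change of the called genes was 0.41 among the higher and -0.51 among the lower, and 33 rose and 7 fell by more than 1. Over all genes tested the median was 0.06 and 61.9% were positive, so a list of genes has to be read against a background that leans upward. In 3735 genes the 2 groups did not overlap (28.8%; 21.5% higher and 7.27% lower), and 758 of the 759 called genes were among them.

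How many genes were called varied with the library left out. Each such fit also has 1 library fewer, so a lower count does not single out the library removed. Without HS_AOSFMT 1, 2 or 3 the count was 257, 236 or 271, and without HS_conFMT 1, 2 or 3 it was 199, 1201 or 319. In each of these 6 fits all 759 genes kept their sign. For the 758 whose groups did not overlap this was bound to hold, so it does not test their direction. The lean upward varied with the scaling. As the values were deposited, 82.2% of the calls were higher. The share was 60.8% after median ratio scaling, 64.5% after quantile normalization and 53.1% when totals were taken without haemoglobin and acinar genes.

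**Figure D1:**
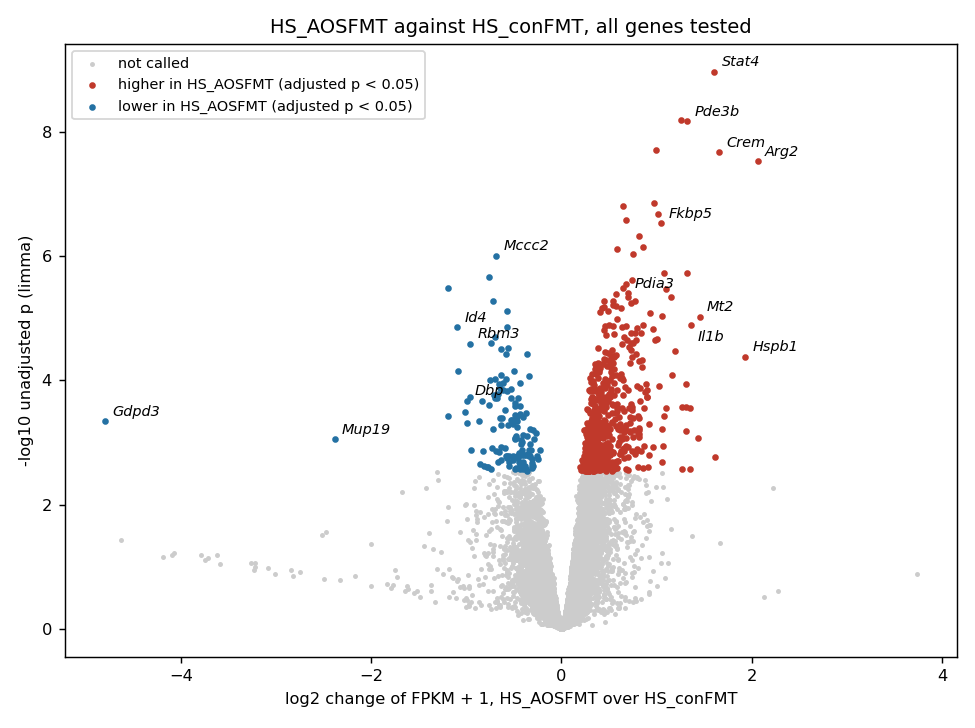
Log2 change of FPKM + 1 (HS_AOSFMT over HS_conFMT, horizontal axis) against -log10 of the unadjusted limma p (vertical axis) for the 12969 genes tested. Red points are the 624 genes called higher and blue points the 135 called lower; Stat4 has the smallest p, Arg2 the largest called rise and Gdpd3 the largest called fall.

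Stat4 had the smallest p of all genes. It encodes a transcription factor that the interleukin 12 receptor activates in T and NK cells, and lies on chromosome 1 (51987148 to 52107189, plus strand, mm10). Stat4 measured 48.8, 54.0 and 64.8 FPKM in HS_AOSFMT 1, 2 and 3, against 15.5, 20.6 and 16.8 FPKM in HS_conFMT 1, 2 and 3. The lowest HS_AOSFMT library was above the highest of all 15 other libraries of the series, which was 21.03 FPKM in HS_AOS 2, from a group given AOS itself after diet and STZ. The mean was 55.9 ± 8.17 FPKM in HS_AOSFMT and 17.7 ± 2.66 FPKM in HS_conFMT (SD, n = 3 each), a 3.16-fold ratio (log2 change 1.61, SE 0.124, limma adjusted p = 1.4e-05).

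No other gene of the interleukin 12 pathway was called. Of the 13 members of that list, all of them tested, Stat4 alone was called, 10 were positive and the median was 0.13. Among all genes tested, 4.81% were called higher and 61.9% were positive. The receptor chain Il12rb2 measured 2.06, 2.53 and 2.99 FPKM in HS_AOSFMT, against 1.61, 1.88 and 1.62 FPKM in HS_conFMT, and the groups did not overlap (log2 change 0.38, adjusted p = 0.102). The Th1 regulator Tbx21 (7.65 ± 1.18 FPKM in HS_AOSFMT and 8.71 ± 2.54 in HS_conFMT) and the cytokine gene Ifng (1.30 ± 0.0321 in HS_AOSFMT and 1.49 ± 0.555 in HS_conFMT) overlapped between the groups. The kinase gene Jak2 (log2 change 0.18, adjusted p = 0.147) and Il12b, a subunit of interleukin 12 (0.43, adjusted p = 0.285), were also not called.

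Crem and the phosphodiesterase Pde3b rose with similar separation. Crem encodes regulators that bind cAMP response elements, several of which repress them. Crem measured 24.7, 29.4 and 24.1 FPKM in HS_AOSFMT, against 6.96, 6.94 and 8.93 FPKM in HS_conFMT. No library outside HS_AOSFMT went above 9.43 FPKM, and Crem rose 3.43-fold (log2 change 1.66, SE 0.158, adjusted p = 5.52e-05). Pde3b (chromosome 7, 114415281 to 114539251, plus strand), whose product breaks down cAMP, measured 17.98, 18.1 and 18.6 FPKM in HS_AOSFMT, against 6.21, 6.88 and 6.99 FPKM in HS_conFMT. The spread within each group was small beside the gap, and Pde3b rose 2.72-fold (log2 change 1.32, SE 0.116, adjusted p = 2.88e-05).

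Of the 11 genes listed as induced through cAMP, 9 passed the filter, 6 rose, 0 fell and the median was 0.55. Nr4a2 and Areg were too low to test. The shares called over all genes tested were 4.81% higher and 1.04% lower. Fosl2, a member of the AP-1 family, measured 7.70, 8.08 and 6.92 FPKM in HS_AOSFMT, against 4.12, 4.32 and 4.94 FPKM in HS_conFMT (log2 change 0.65, adjusted p = 0.00956). A second cAMP phosphodiesterase, Pde4d, measured 8.16, 7.12 and 6.42 FPKM in HS_AOSFMT, against 3.64, 3.73 and 4.32 FPKM in HS_conFMT (log2 change 0.75, adjusted p = 0.0189). The groups did not overlap in either gene. The nuclear receptor Nr4a3 (log2 change 0.55) and Rgs2, an inhibitor of G protein signalling (0.41), rose as well, whereas the kinase Sik1 measured 25.7 ± 1.03 FPKM in HS_AOSFMT and 25.2 ± 3.08 in HS_conFMT. The number of the 9 called was 3 without HS_AOSFMT 1, HS_AOSFMT 2 or HS_conFMT 1 and 4 without HS_AOSFMT 3 or HS_conFMT 3; Crem, Pde3b and Fosl2 were called in each of these fits, while the highest adjusted p among them was 0.0824 for Pde4d, 0.198 for Nr4a3 and 0.205 for Rgs2. Rgs2 was also lost under each other scaling tried (adjusted p 0.0651 to 0.107) and Nr4a3 with totals taken without haemoglobin and acinar genes (0.0722), which left 4 called. Beyond the list, and chosen after their values were seen, the cyclic nucleotide phosphodiesterases Pde2a (38.6 ± 3.92 FPKM in HS_AOSFMT and 24.6 ± 4.23 in HS_conFMT, log2 change 0.63) and Pde8a (8.65 ± 0.609 in HS_AOSFMT and 5.07 ± 0.182 in HS_conFMT, 0.67) rose too, and 6 of 15 tested genes whose symbol is Pde and a number were called higher and 0 lower.

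**Figure D2:**
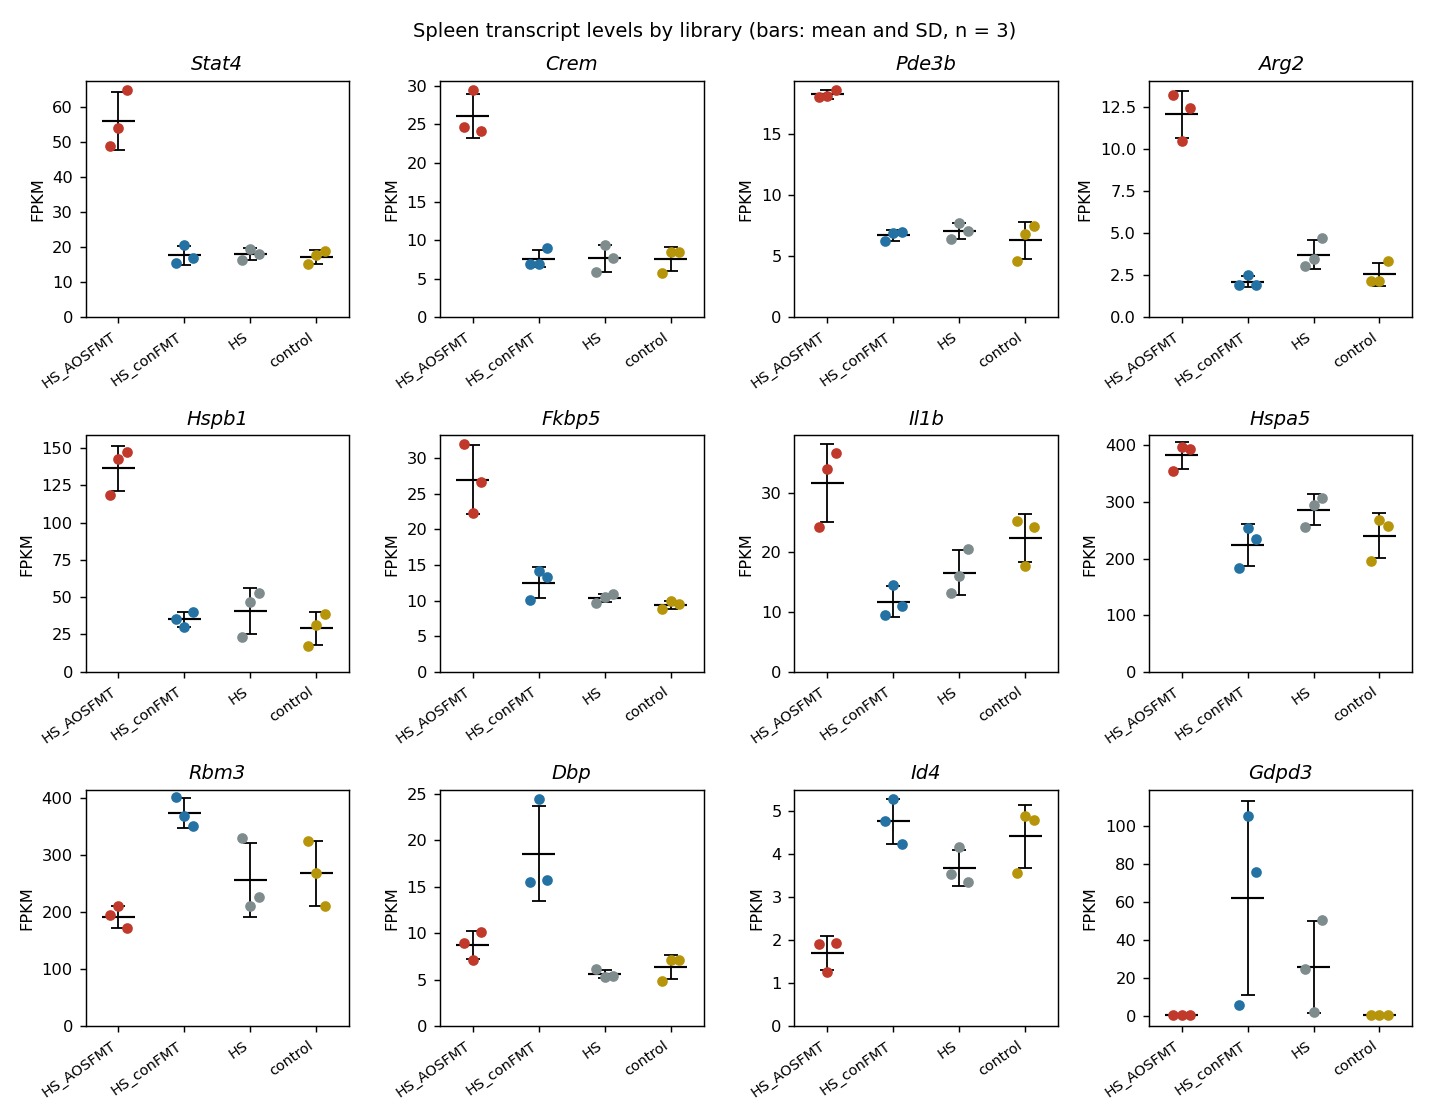
FPKM of 12 genes in each library of HS_AOSFMT, HS_conFMT, HS and control (points), with the mean and SD of 3 libraries (bars). The HS_AOSFMT points of Stat4, Crem, Pde3b, Arg2, Hspb1, Fkbp5 and Hspa5 lie above every other point and those of Id4 and Rbm3 below, whereas Gdpd3 varies from 5.61 to 105 FPKM within HS_conFMT.

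Arg2 showed the largest rise among called genes. It encodes the mitochondrial arginase, which splits arginine into ornithine and urea, and lies on chromosome 12 (79130777 to 79156301, plus strand). Arg2 measured 13.2, 10.5 and 12.5 FPKM in HS_AOSFMT, against 1.94, 2.50 and 1.94 FPKM in HS_conFMT. All 3 HS_AOSFMT libraries were above the highest other library of the series (HS 3, 4.70 FPKM), and the rise was 5.68-fold (log2 change 2.06, SE 0.202, adjusted p = 6.34e-05). Among the 12 genes listed for arginine and polyamine metabolism, 10 were tested and Arg2 alone was called, with 4 positive and a median of -0.01. The shares over all genes tested were 4.81% called higher and 61.9% positive. The cytosolic arginase Arg1 measured 2.72, 0.21 and 1.02 FPKM in HS_AOSFMT, against 0.52, 1.79 and 1.43 FPKM in HS_conFMT, and its groups overlapped.

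Il1b, which encodes the inflammatory cytokine interleukin 1 beta, measured 24.2, 34.0 and 36.6 FPKM in HS_AOSFMT, against 9.55, 14.6 and 10.97 FPKM in HS_conFMT. The groups did not overlap and Il1b rose 2.70-fold (log2 change 1.36, SE 0.214, adjusted p = 0.00331), though untreated control spleens also held 22.4 ± 4.07 FPKM. Of 13 inflammatory genes listed with NF-kB, 11 were tested, Il1b alone was called, 10 were positive and the median was 0.25, or 0.11 without HS_conFMT 1. Over all genes tested, 4.81% were called higher and 61.9% were positive. The chemokine gene Ccl3 measured 4.28 ± 0.976 FPKM in HS_AOSFMT and 2.59 ± 1.03 in HS_conFMT (adjusted p = 0.148), and the NF-kB subunit Nfkb1 60.9 ± 0.809 in HS_AOSFMT and 51.5 ± 8.18 in HS_conFMT (adjusted p = 0.296). Il1a, the other interleukin 1, had a log2 change of 0.31 (adjusted p = 0.183).

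Neutrophil transcripts were higher in each HS_AOSFMT library than in any HS_conFMT library, yet no single gene passed the test. The 14 neutrophil genes together took 0.236%, 0.308% and 0.286% of the summed FPKM in HS_AOSFMT, against 0.171%, 0.127% and 0.125% in HS_conFMT (exact two-sided permutation p = 0.1, the smallest that 3 against 3 can give). Over the same list 14 of 14 were positive and 8 did not overlap, against 61.9% positive and 21.5% not overlapping upward among all genes tested. The median of the list was 0.77 and limma called 0 of its genes, with 3 at an unadjusted p under 0.05. The granule protein S100a8 measured 514, 691 and 628 FPKM in HS_AOSFMT, against 386, 254 and 280 FPKM in HS_conFMT (adjusted p = 0.459). The chemokine receptor Cxcr2 measured 7.30, 7.03 and 9.93 FPKM in HS_AOSFMT, against 3.3, 4 and 4.42 FPKM in HS_conFMT (log2 change 0.88, adjusted p = 0.0597). Control libraries covered a wider span, 0.129% to 1.94%. In bulk RNA, fewer cells of a type and less RNA per cell cannot be told apart.

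Of the primary granule genes of early myeloid cells, 5 of 5 were positive, with 0 called by limma (0 unadjusted) and a median of 0.61, which was 0.37 without HS_conFMT 2 and 0.81 without HS_conFMT 1. Mpo, the myeloperoxidase gene, measured 25.8, 29.0 and 23.1 FPKM in HS_AOSFMT, against 25.6, 14.1 and 16.7 FPKM in HS_conFMT. Il1b is also made by neutrophils and monocytes, and whether the higher neutrophil transcripts account for it was not tested. With the neutrophil level as a covariate, a fit added after the data were seen, the log2 change of Il1b was 1.36 and that of Arg2 2.14. The slope of that covariate came from the spread within all 6 groups, and the neutrophil share of control ran from 0.129% to 1.94%. The fit therefore does not show what the neutrophil difference contributed to either gene. The called gene Lilrb4a, an inhibitory receptor of myeloid cells, measured 25.2, 40.1 and 23.2 FPKM in HS_AOSFMT, against 5.77, 17.6 and 6.30 FPKM in HS_conFMT (log2 change 1.61, adjusted p = 0.038). Its reads may be shared with near-identical paralogs, and its call ended without any HS_AOSFMT library or without HS_conFMT 1 or 3 (adjusted p up to 0.173), and with totals taken without haemoglobin and acinar genes (0.051).

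Of 18 genes of protein folding in the endoplasmic reticulum, 12 rose in HS_AOSFMT and 0 fell. The list holds the chaperones, disulfide isomerases and degradation factors that the unfolded protein response induces when that compartment is loaded. All 18 were tested and positive, 16 did not overlap between the groups and the median was 0.55. Of all genes tested, 4.81% were called higher, 61.9% were positive and 21.5% did not overlap upward. Summed, the 18 folding genes took 0.340% to 0.389% of the FPKM in HS_AOSFMT and 0.165% to 0.279% in HS_conFMT (exact two-sided permutation p = 0.1). The number called was 6 without HS_AOSFMT 1, 2 or 3, 5 without HS_conFMT 1, 7 without HS_conFMT 3 and 16 without HS_conFMT 2. All 18 stayed positive in each of these fits, which was bound to hold for the 16 that did not overlap. Under other scalings 11 were called after median ratio scaling, 9 after quantile normalization and 9 with totals taken without haemoglobin and acinar genes. Manf was lost in all 3 (adjusted p up to 0.0803), and Calr (up to 0.0759) and Dnajb9 (up to 0.0785) in the second and the third.

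In 8 of the 16 members with a promoter in the RefSeq table, the 250 bases before the start held an ER stress element, CCAAT and CCACG with 9 bases between them on either strand, against 35 of 27025 genes (0.130%). They were Hspa5, Hsp90b1, Calr, Canx, Pdia6, Dnajc3, Creld2 and Syvn1, of which Creld2 and Syvn1 were not called. A match describes these letters and shows no binding. The list was composed of genes that the unfolded protein response induces, so the count of elements is no independent result. The sequences below are from RefSeq (GRCm38.p6, the mm10 assembly), each 5′ to 3′ along the gene, with the element in capitals. They are from 5 called members that share this composite element, and in Calr it lies on the opposite strand. Hsp90b1, also called, holds 2 matches and is not shown.
Hspa5, chr2:34772005-34772063, plus strand: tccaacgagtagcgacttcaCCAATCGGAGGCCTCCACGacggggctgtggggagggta
Canx, chr11:50325780-50325838, minus strand: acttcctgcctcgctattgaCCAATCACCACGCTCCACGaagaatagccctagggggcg
Pdia6, chr12:17266471-17266529, plus strand: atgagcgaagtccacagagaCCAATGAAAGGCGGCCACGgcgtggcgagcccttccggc
Dnajc3, chr14:118937807-118937865, plus strand: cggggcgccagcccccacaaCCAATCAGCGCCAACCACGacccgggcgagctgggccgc
Calr, chr8:84847055-84847113, minus strand: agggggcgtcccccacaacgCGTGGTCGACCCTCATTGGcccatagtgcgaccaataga

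Hspa5, the chaperone BiP that also holds the stress sensors of this compartment, measured 355, 398 and 394 FPKM in HS_AOSFMT, against 183, 255 and 234 FPKM in HS_conFMT. The groups were clearly apart, and no library of the other groups exceeded 320 FPKM (1.71-fold, log2 change 0.78, SE 0.13, adjusted p = 0.00433). Hsp90b1, another chaperone of this compartment, measured 443, 519 and 540 FPKM in HS_AOSFMT, against 219, 338 and 287 FPKM in HS_conFMT (log2 change 0.85, adjusted p = 0.00712). Pdia6, a disulfide isomerase, showed the largest change of the list: 122, 141 and 145 FPKM in HS_AOSFMT, against 61.1, 88.2 and 76.2 FPKM in HS_conFMT (log2 change 0.86, adjusted p = 0.00331). Pdia3, the isomerase that works with calnexin and in peptide loading, measured 269, 280 and 283 FPKM in HS_AOSFMT, against 155, 198 and 162 FPKM in HS_conFMT. That is 1.61-fold (log2 change 0.69, SE 0.0997, adjusted p = 0.00205), with the smallest p of the list.

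The lectin chaperones Canx (101 ± 4.73 FPKM in HS_AOSFMT and 68.7 ± 6.65 in HS_conFMT, log2 change 0.55) and Calr (380 ± 18.4 in HS_AOSFMT and 274 ± 44.7 in HS_conFMT, 0.48) rose less. The other called members were the nucleotide exchange factor Hyou1, the co-chaperones Dnajc3, Dnajb9 and Dnajb11, Sdf2l1 and the secreted factor Manf, with log2 changes of 0.47 (Dnajb11) to 0.66 (Sdf2l1). HS_conFMT 2 was the highest HS_conFMT library for Hspa5, Hsp90b1, Canx, Pdia3 and Pdia6. Herpud1, a target of the same response that serves degradation, measured 89.7, 86.5 and 85.2 FPKM in HS_AOSFMT, against 65.8, 92.4 and 79.4 FPKM in HS_conFMT. Its groups overlapped, as did those of Syvn1. The transcription factor Xbp1 measured 78.5 ± 2.95 FPKM in HS_AOSFMT and 55.9 ± 9.63 in HS_conFMT and just missed the threshold (log2 change 0.50, adjusted p = 0.0512). Without 1 library the calls of Hspa5, Hsp90b1, Pdia3, Pdia6 and Canx held in each of the 6 fits, with adjusted p up to 0.0373 (Hsp90b1). Hyou1 was lost without HS_AOSFMT 2 or HS_conFMT 1 (up to 0.0652), Dnajc3 without HS_AOSFMT 1, HS_AOSFMT 3 or HS_conFMT 1 (up to 0.0746), and Calr, Sdf2l1, Manf, Dnajb9 and Dnajb11 without any library but HS_conFMT 2 (up to 0.216 for Dnajb9 without HS_conFMT 1).

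The integrated stress response shares upstream signals with the unfolded protein response. Of its 12 genes, 0 were called by limma (1 at an unadjusted p under 0.05), and the median was 0.09, or 0.00 without HS_AOSFMT 2; the difference from the folding list was not tested. Atf4, its central transcription factor, measured 164, 181 and 154 FPKM in HS_AOSFMT, against 203, 172 and 185 FPKM in HS_conFMT, and Trib3 overlapped as well (adjusted p = 0.305). The serine synthesis gene Psat1 measured 19.8 ± 0.906 FPKM in HS_AOSFMT and 13.5 ± 2.74 in HS_conFMT (adjusted p = 0.0714).

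**Figure D3:**
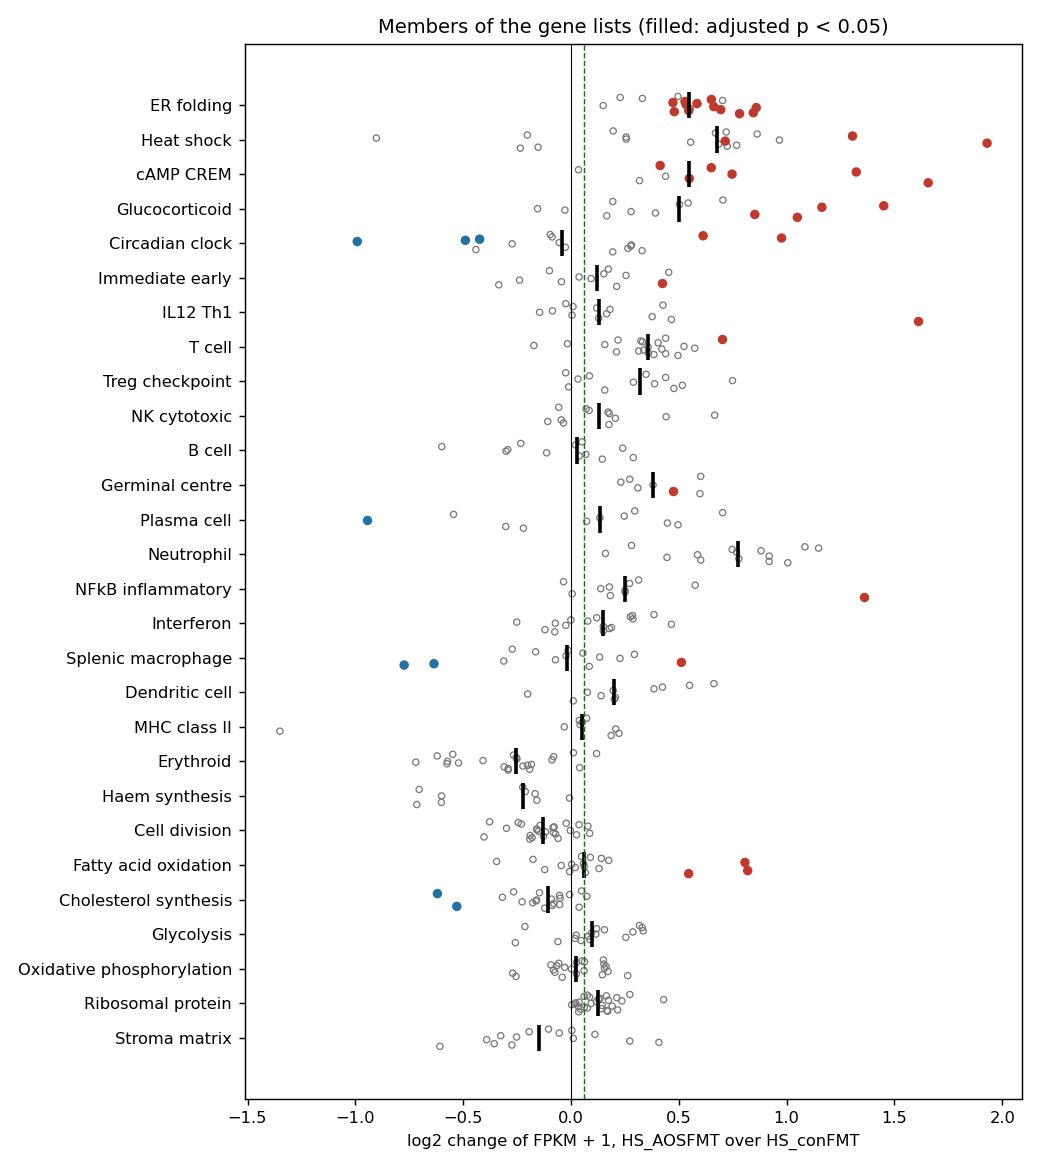
Log2 change of FPKM + 1 (HS_AOSFMT over HS_conFMT) of each tested member of 28 gene lists, with filled points for called genes, black bars for list medians and the dashed line for the median of all genes tested (0.06). All 18 ER folding genes lie to the right of 0 and 12 are filled, the 14 neutrophil genes lie to the right with 0 filled, and 20 of 23 erythroid genes lie to the left with 0 filled.

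Of the heat shock genes, 3 were called higher and 0 lower, while more were higher without being called. Hspb1, a small heat shock protein that holds unfolded clients, measured 119, 143 and 148 FPKM in HS_AOSFMT, against 35.4, 30.1 and 39.9 FPKM in HS_conFMT. HS_AOSFMT was above every other library of the series, whose highest was 52.8 FPKM in HS 3 (3.88-fold, log2 change 1.93, SE 0.334, adjusted p = 0.00588). Hspa4l, of the Hsp110 family, measured 20.2, 29.3 and 21.7 FPKM in HS_AOSFMT, against 8.22, 7.88 and 10.8 FPKM in HS_conFMT (log2 change 1.31, adjusted p = 0.0101; 0.0507 without HS_AOSFMT 2). The mitochondrial co-chaperonin Hspe1 measured 322, 386 and 374 FPKM in HS_AOSFMT, against 196, 225 and 237 FPKM in HS_conFMT (log2 change 0.72, adjusted p = 0.0207). These 3 were the members called out of 18, against 4.81% called higher of all genes tested, and 12 had an unadjusted p under 0.05. Of the list, 14 were positive and 13 did not overlap upward, against 61.9% and 21.5% of all genes tested. The list median was 0.68. Without HS_AOSFMT 2 only Hspb1 was called, and without HS_AOSFMT 3 or HS_conFMT 1 the call of Hspe1 ended too (adjusted p up to 0.102).

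The abundant chaperones Hspa8 (2280 ± 282 FPKM in HS_AOSFMT and 1379 ± 164 in HS_conFMT, adjusted p = 0.141) and Hsp90ab1 (1420 ± 137 in HS_AOSFMT and 883 ± 87.5 in HS_conFMT, adjusted p = 0.089) were not called. Hspa1a, an inducible member, measured 13.4, 22.2 and 18.6 FPKM in HS_AOSFMT, against 21.8, 14.1 and 30.3 FPKM in HS_conFMT. Its groups overlapped, and it shares much of its sequence with Hspa1b, so its reads are uncertain. Dnajb1 was lower in each HS_AOSFMT library, at 39.7, 51.8 and 32.8 FPKM, against 77.0, 71.4 and 83.2 FPKM in HS_conFMT, and was not called (log2 change -0.90, adjusted p = 0.167).

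A heat shock element (GAA, TTC and GAA, or TTC, GAA and TTC, each with 2 bases between the units, on both strands) was found in the 250 bases before the start of Hspd1 and Hspe1 among 14 members with a promoter, against 0.514% of all genes. Hspd1 (chromosome 1, 55077835 to 55088243, minus strand) and Hspe1 (55088132 to 55091307, plus strand) overlap at their starts. Their 2 promoters may therefore not hold separate sites. A match describes these letters and shows no binding. The list was composed of heat shock genes, so the count of elements is no independent result. The Hspe1 stretch is shown because Hspe1 is the called member that holds the element, with the overlapping matches in capitals (RefSeq, GRCm38.p6).
Hspe1, chr1:55088039-55088096, plus strand: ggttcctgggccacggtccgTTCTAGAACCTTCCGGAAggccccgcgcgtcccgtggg

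Genes that glucocorticoids induce were higher in HS_AOSFMT in part. Of 13 listed and tested, 11 were positive, 4 were called higher and 0 lower, and the median was 0.50, or 0.28 without HS_conFMT 1. Over all genes tested, 61.9% were positive and 4.81% were called higher. Fkbp5, a co-chaperone of the glucocorticoid receptor (chromosome 17, 28399094 to 28517527, minus strand), measured 32.0, 22.3 and 26.6 FPKM in HS_AOSFMT, against 10.1, 14.2 and 13.2 FPKM in HS_conFMT. No library outside HS_AOSFMT exceeded 14.2 FPKM (2.16-fold, log2 change 1.05, SE 0.122, adjusted p = 0.000347). Zbtb16, the transcription factor PLZF, measured 2.02, 1.58 and 1.75 FPKM in HS_AOSFMT, against 0.43, 0.78 and 0.43 FPKM in HS_conFMT, again without overlap (log2 change 0.85, adjusted p = 0.00071).

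The metallothioneins, which bind zinc and are induced by metals as well as by glucocorticoids, were the other called members. Mt2 measured 156, 205 and 136 FPKM in HS_AOSFMT, against 61.7, 46.6 and 72.3 FPKM in HS_conFMT (2.76-fold, log2 change 1.45, adjusted p = 0.00278). Mt1 measured 218, 258 and 207 FPKM in HS_AOSFMT, against 100, 85.2 and 120 FPKM in HS_conFMT (2.24-fold, log2 change 1.16, adjusted p = 0.0087). Both stood above every other library of the series, and these calls, with those of Fkbp5 and Zbtb16, held with any 1 library left out. Other classical targets were not called: Tsc22d3, which encodes GILZ, measured 144, 135 and 149 FPKM in HS_AOSFMT, against 104, 137 and 144 FPKM in HS_conFMT, and overlapped (adjusted p = 0.736). Dusp1, Ddit4 and Per1 overlapped too, at adjusted p of 0.964, 0.694 and 0.473. In HS, Tsc22d3 measured 81.4 ± 23.6 FPKM. A full glucocorticoid response element (AGAACA and TGTTCT with 3 bases between them, both strands) was found in the 250 bases before Sgk1 alone of the 11 promoters at hand, and in 3 of 27025 genes.

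Among clock genes, the output regulators that bind D-boxes moved in opposite directions. Nfil3, which represses through D-boxes, measured 6.12, 6.47 and 5.50 FPKM in HS_AOSFMT, against 2.11, 3.17 and 2.50 FPKM in HS_conFMT (2.33-fold, log2 change 0.98, SE 0.107, adjusted p = 0.000249). Dbp, which activates through the same site, measured 9, 7.09 and 10.1 FPKM in HS_AOSFMT, against 15.5, 24.4 and 15.8 FPKM in HS_conFMT (log2 change -0.99, SE 0.205, adjusted p = 0.0134; 0.0642 without HS_AOSFMT 2). Neither pair of groups overlapped, and Dbp in HS was 5.63 ± 0.461 FPKM, below both transplant groups. The related activators Tef (11.97 ± 1.08 FPKM in HS_AOSFMT and 17.2 ± 1.78 in HS_conFMT, log2 change -0.49) and Hlf (0.767 ± 0.168 in HS_AOSFMT and 1.37 ± 0.166 in HS_conFMT, -0.42) fell as well, but each call ended whichever library was left out (adjusted p up to 0.159).

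Of 17 clock genes, 16 were tested, 2 were called higher, 3 lower, 7 were positive and the median was -0.04, or 0.05 without HS_conFMT 2. Among all genes tested the called shares were 4.81% higher and 1.04% lower. The second gene called higher was Bhlhe40, a repressor that light and cytokines induce, with 25.1 ± 2.37 FPKM in HS_AOSFMT and 16.4 ± 4.25 in HS_conFMT (log2 change 0.61, adjusted p = 0.0263). Its call held without HS_conFMT 2 and ended without any other of the 6 libraries (adjusted p up to 0.135). The core loop was not called: Arntl measured 8.78 ± 0.991 FPKM in HS_AOSFMT and 7.09 ± 1.17 in HS_conFMT, Per1 15.8 ± 0.333 in HS_AOSFMT and 13.9 ± 2.95 in HS_conFMT, and Nr1d1 7.77 ± 1.70 in HS_AOSFMT and 9.50 ± 1.06 in HS_conFMT. The hour of collection is not given, and its part in these values was not tested. Among 15 members with a promoter, an E-box (CACGTG) was found in 5 against 6.86% of all genes, and a D-box (TTATGTAA or TTACGTAA, both strands) in Per3 alone against 1.10%. Nfil3 kept its call whichever library was left out.

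Fewer genes fell, and several of the largest falls were of low or variable transcripts. Gdpd3 (chromosome 7, 126766334 to 126775649, plus strand), a lysophospholipase D, measured 0.47, 0.39 and 0.24 FPKM in HS_AOSFMT, against 5.61, 105 and 76.0 FPKM in HS_conFMT. The groups did not overlap, HS_conFMT 1 lay far below the other two of its group, and control spleens stood at 0.490 ± 0.149 FPKM and HS at 25.8 ± 24.2 FPKM (log2 change -4.79, SE 1.04, adjusted p = 0.0201). Its call ended without any HS_AOSFMT library or HS_conFMT 3 (adjusted p up to 0.0737). Mup19, one of the near-identical major urinary protein genes whose reads cannot be assigned with certainty, measured 2.27, 0.89 and 0 FPKM in HS_AOSFMT, against 3.41, 9.63 and 17.7 FPKM in HS_conFMT (log2 change -2.38, adjusted p = 0.0273; up to 0.107 without 1 library, being lost without HS_AOSFMT 2, HS_AOSFMT 3 or HS_conFMT 3).

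Id4 and Rbm3 were the steadier of the genes that fell. Id4 (chromosome 13, 48261228 to 48266026, plus strand), an inhibitor of helix-loop-helix transcription factors, measured 1.91, 1.25 and 1.94 FPKM in HS_AOSFMT, against 4.75, 5.28 and 4.22 FPKM in HS_conFMT (log2 change -1.10, SE 0.175, adjusted p = 0.00331). All 3 HS_AOSFMT libraries were below every other library of the series. Rbm3 (chromosome X, 8138975 to 8145880, minus strand), an RNA-binding protein induced by mild cold, measured 194, 210 and 171 FPKM in HS_AOSFMT, against 402, 367 and 350 FPKM in HS_conFMT. The groups were far apart (0.514-fold, log2 change -0.96, SE 0.162, adjusted p = 0.00457), and both calls held with any 1 library left out. Cirbp, the related cold-inducible gene, measured 31.9, 27.7 and 34.6 FPKM in HS_AOSFMT, against 30.6, 36.6 and 35.4 FPKM in HS_conFMT, and overlapped (log2 change -0.12, adjusted p = 0.745). Chosen after its values were seen, the leucine catabolism gene Mccc2 measured 3.61, 3.39 and 3.14 FPKM in HS_AOSFMT, against 6.15, 6.32 and 5.65 FPKM in HS_conFMT (log2 change -0.68, adjusted p = 0.000794). Its call held with any 1 library left out.

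The remaining large falls ran from -1.19 to -0.79. They were those of Irgc1 (an immunity-related GTPase), Rpl37rt, a retrotransposed copy of a ribosomal protein gene that may share reads with its parent, Sspn (sarcospan), Fgfr4 (a fibroblast growth factor receptor), Mrgpra4, Kctd14, Clic3 and Haghl. Sspn measured 2.06, 1.39 and 1.61 FPKM in HS_AOSFMT, against 2.65, 6.33 and 4.26 FPKM in HS_conFMT (log2 change -0.96, adjusted p = 0.0126; 0.0593 without HS_AOSFMT 2). Kctd14 measured 4.58, 6.60 and 5.73 FPKM in HS_AOSFMT, against 13.8, 9.62 and 9.36 FPKM in HS_conFMT (log2 change -0.84, adjusted p = 0.0134; up to 0.0731 without HS_AOSFMT 1 or HS_conFMT 1). Haghl lost its call whichever library was left out, and the other 5 without at least 4 of the 6, HS_AOSFMT 2 and 3 among them for each, with adjusted p up to 0.159 for Mrgpra4, 0.139 for Haghl, 0.128 for Clic3, 0.0855 for Rpl37rt and 0.0839 for Irgc1 and Fgfr4.

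Further genes among the 15 largest rises differed in how steady they were. B3gnt7, an N-acetylglucosaminyltransferase, measured 10.3, 11.1 and 10.3 FPKM in HS_AOSFMT, against 3.32, 3.6 and 3.96 FPKM in HS_conFMT (log2 change 1.32, SE 0.178, adjusted p = 0.00135). Its groups stood far apart and no library outside HS_AOSFMT went above 3.96 FPKM. Slc37a2, a sugar phosphate transporter of macrophages, measured 9.20, 8.64 and 12.8 FPKM in HS_AOSFMT, against 1.66, 3.63 and 5.64 FPKM in HS_conFMT (log2 change 1.35, adjusted p = 0.0151). Gprasp1, which sorts G protein-coupled receptors, measured 42.2, 43.8 and 44.4 FPKM in HS_AOSFMT, against 13.9, 17.99 and 19.4 FPKM in HS_conFMT (log2 change 1.31, adjusted p = 0.0236). Neither overlapped. Lman2l, a cargo lectin of the early secretory pathway, measured 26.3 ± 3.87 FPKM in HS_AOSFMT and 10.2 ± 2.75 in HS_conFMT (1.31), the epithelial gene Dmkn 4.75 ± 1.97 in HS_AOSFMT and 1.18 ± 0.257 in HS_conFMT (1.35), and Zfp984, a zinc finger gene with near-identical neighbours, 10.8 ± 2.91 in HS_AOSFMT and 3.55 ± 2.11 in HS_conFMT (1.43). The call of B3gnt7 held with any 1 library left out. The others did not all do so: Slc37a2 lost it without HS_AOSFMT 3 or HS_conFMT 1 (adjusted p up to 0.0704), Lman2l without HS_AOSFMT 2, HS_AOSFMT 3 or HS_conFMT 1 (0.0796), Gprasp1 without any but HS_conFMT 2 (0.109), Zfp984 without HS_AOSFMT 1, HS_AOSFMT 3, HS_conFMT 2 or HS_conFMT 3 (0.102) and Dmkn whichever was left out (0.165).

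Of 20 T cell genes tested, 1 was called, 18 were positive, 10 did not overlap and the median was 0.36. Over all genes tested, 61.9% were positive and 21.5% did not overlap upward. The 1 call in 20 is close to the 4.81% called higher over all genes. The number of T cell genes called was 4 without HS_conFMT 2 and 0 without any other of the 6 libraries. It was 0 with totals taken without haemoglobin and acinar genes, and 15 with the neutrophil level as a covariate. Il7r, the interleukin 7 receptor of naive and memory T cells, measured 42.6, 34.5 and 41.0 FPKM in HS_AOSFMT, against 19.6, 27.2 and 25.1 FPKM in HS_conFMT (log2 change 0.70, adjusted p = 0.0322). It was lost without any library but HS_conFMT 2 (up to 0.158 without HS_conFMT 1), and with totals taken without haemoglobin and acinar genes (0.0662). The receptor chain gene Cd3d measured 50.04, 47.6 and 53.3 FPKM in HS_AOSFMT, against 29.9, 41.8 and 35.3 FPKM in HS_conFMT, and the kinase gene Lck 113, 104 and 127 FPKM in HS_AOSFMT, against 65.1, 91.4 and 74.5 FPKM in HS_conFMT. Neither overlapped, at adjusted p of 0.085 and 0.0689. The summed T cell share was 0.130% to 0.170% in HS_AOSFMT and 0.0864% to 0.142% in HS_conFMT and overlapped (exact two-sided permutation p = 0.2), and how far it accounts for the Stat4 level was not tested.

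Other lymphocyte lists held few calls, and their medians moved with single libraries: without HS_conFMT 1 those of the regulatory T cell, B cell, plasma cell and dendritic cell lists were 0.11, -0.11, -0.02 and 0.10, and without HS_conFMT 2 they were 0.55, 0.16, 0.31 and 0.48. Of 12 regulatory T cell and checkpoint genes, 10 were positive with a median of 0.32 and 0 were called by limma (4 at an unadjusted p under 0.05); Foxp3 measured 6.81 ± 0.87 FPKM in HS_AOSFMT and 6.18 ± 2.11 in HS_conFMT. Of 12 NK and cytotoxic genes, 0 were called (1 unadjusted) and the median was 0.13. B cell genes had a median of 0.03 with 0 of 12 called (1 unadjusted), and the low-affinity IgE receptor Fcer2a measured 77.7 ± 9.74 FPKM in HS_AOSFMT and 118 ± 13.2 in HS_conFMT (adjusted p = 0.0748). Among 7 germinal centre genes, all were positive (median 0.38) and Bcl6 alone was called. Of all genes tested, 61.9% were positive and 4.81% were called higher. Bcl6, the repressor that directs this fate, measured 23.4 ± 0.441 FPKM in HS_AOSFMT and 16.7 ± 2.60 in HS_conFMT (log2 change 0.48, adjusted p = 0.0301). Its call was lost without any library but HS_conFMT 2 (adjusted p up to 0.15).

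Plasma cell genes were mixed, 7 of 11 being positive with a median of 0.13. Tnfrsf17, the survival receptor BCMA, fell, with 1.43, 0.77 and 1.42 FPKM in HS_AOSFMT, against 2.83, 4.04 and 2.86 FPKM in HS_conFMT (log2 change -0.95, adjusted p = 0.0347; 0.0693 to 0.128 without 1 library, whichever it was). Jchain, the joining chain of secreted IgM and IgA, measured 589, 548 and 558 FPKM in HS_AOSFMT, against 610, 712 and 658 FPKM in HS_conFMT, and was not called (adjusted p = 0.643). Plasma cells, which secrete antibody, depend on the ER folding genes, and Xbp1 and Creld2 are on both lists. Of the 11 plasma cell genes, 0 were called higher and 4 had an unadjusted p under 0.05. In 3 the groups did not overlap upward and in 3 downward, against 21.5% and 7.27% of all genes tested. The summed share of the plasma cell list was 0.156% to 0.175% in HS_AOSFMT and 0.125% to 0.198% in HS_conFMT. Its part in the ER folding values was not tested.

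Of the 14 macrophage genes, 2 of iron recycling fell and 1 of adhesion rose. Over all genes tested, 1.04% were called lower and 4.81% higher. Slc40a1, the iron exporter ferroportin, measured 46.4, 38.8 and 46.6 FPKM in HS_AOSFMT, against 68.7, 66.8 and 70.3 FPKM in HS_conFMT (log2 change -0.64, adjusted p = 0.0404). Hmox1, which breaks down haem, measured 206, 159 and 148 FPKM in HS_AOSFMT, against 287, 350 and 244 FPKM in HS_conFMT (log2 change -0.77, adjusted p = 0.046). Vcam1, the adhesion molecule of red pulp macrophages, rose instead, to 132 ± 13.3 FPKM in HS_AOSFMT, against 92.4 ± 7.94 in HS_conFMT (log2 change 0.51, adjusted p = 0.0444). The groups did not overlap in these 3, as in 758 of the 759 called genes. Slc40a1 and Hmox1 lost their calls whichever library was left out (adjusted p up to 0.139 and 0.149). Vcam1 lost its call without any but HS_conFMT 2 (up to 0.161). Vcam1 was not called either after median ratio scaling, quantile normalization or totals without haemoglobin. Over the 14 macrophage genes 6 were positive, the median was -0.02, and Spic, which defines red pulp macrophages, had a log2 change of 0.08.

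Dendritic cell genes had a median of 0.20 with 0 of 11 called by limma (2 unadjusted), and MHC class II genes a median of 0.05 with 0 of 9 called (0 unadjusted). H2-Eb1 measured 190, 39.0 and 232 FPKM in HS_AOSFMT, against 473, 493 and 125 FPKM in HS_conFMT, a wide spread within both groups of outbred mice. The interferon list had a median of 0.15 (0.02 without HS_conFMT 1) and 0 of 17 called (0 unadjusted). Junb was the only called member of 12 tested immediate early genes, against 4.81% called higher of all genes tested. It measured 59.6 ± 6.24 FPKM in HS_AOSFMT and 44.1 ± 3.43 in HS_conFMT (log2 change 0.42, adjusted p = 0.0401). Its call was lost without HS_AOSFMT 2, HS_AOSFMT 3, HS_conFMT 1 or HS_conFMT 3 (adjusted p up to 0.169) and under each other scaling tried. Fos overlapped between the groups.

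Red cell genes varied with single libraries. Haemoglobin genes took 15.3%, 17.6% and 12.9% of the summed FPKM in HS_AOSFMT, against 35.5%, 14.7% and 25.7% in HS_conFMT, and HS_conFMT 2 lay among the HS_AOSFMT values (exact two-sided permutation p = 0.3). Of the 6 haemoglobin genes 4 were negative, with a median of -0.80 (-0.43 without HS_conFMT 1 and -1.19 without HS_conFMT 2) and 0 called (3 unadjusted). Of 23 tested erythroid genes, 20 were negative with a median of -0.25, which was -0.68 without HS_conFMT 2 and 0.06 without HS_conFMT 1; limma called 0 (0 unadjusted). All 9 haem synthesis genes were negative, with a median of -0.22 (-0.60 without HS_conFMT 2 and -0.02 without HS_conFMT 1) and 0 called (1 unadjusted). Alas2, the rate-limiting enzyme of haem synthesis in red cell precursors, measured 287, 349 and 235 FPKM in HS_AOSFMT, against 770, 259 and 522 FPKM in HS_conFMT. Cell division genes followed the same libraries, 21 of 25 being negative with a median of -0.13 (-0.33 without HS_conFMT 2 and 0.09 without HS_conFMT 1) and 0 called (0 unadjusted).

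With totals taken without haemoglobin and acinar genes, 254 genes were called higher and 224 lower, and the median over all genes was -0.02. That scaling leaves out both sets at once, so the part of the haemoglobin share alone in the lean upward was not tested. With the erythroid level as a covariate, a fit added after the data were seen, limma called 1319 genes, and the log2 change of Stat4 was 1.53, that of Crem 1.65, that of Hspa5 0.72, that of Rbm3 -0.90 and that of Slc40a1 -0.63. With the acinar level as covariate 334 were called, and Stat4, Crem, Arg2, Hspa5 and Rbm3 remained among them. Megakaryocyte genes had a median of -0.08 with 0 of 11 called (0 unadjusted).

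**Figure D4:**
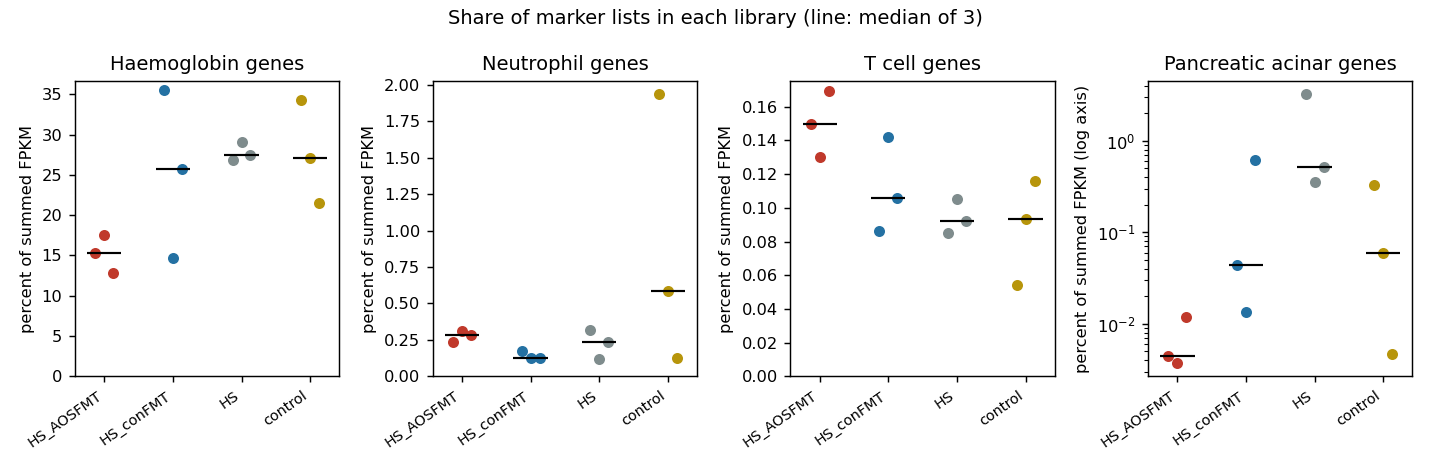
Share of the summed FPKM (percent) taken by haemoglobin, neutrophil, T cell and pancreatic acinar gene lists in each library of HS_AOSFMT, HS_conFMT, HS and control, with lines at group medians and a log axis for the acinar genes. The neutrophil share is 0.236% to 0.308% in HS_AOSFMT and 0.125% to 0.171% in HS_conFMT, while the haemoglobin shares of the 2 groups overlap.

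Among genes of lipid use, 3 of 18 were called higher, against 4.81% of all genes tested, and the median was 0.06. Plin2, the coat protein of lipid droplets (chromosome 4, 86648386 to 86670060, minus strand), measured 44.3, 48.1 and 44.0 FPKM in HS_AOSFMT, against 30.9, 31.2 and 30.4 FPKM in HS_conFMT (1.48-fold, log2 change 0.55, SE 0.0868, adjusted p = 0.00331). The groups did not overlap and the call held with any 1 library left out. Angptl4, an inhibitor of lipoprotein lipase, measured 20.6, 16.6 and 21.7 FPKM in HS_AOSFMT, against 11.4, 11.9 and 8.88 FPKM in HS_conFMT (log2 change 0.82, adjusted p = 0.0227). Pdk4, the kinase that limits glucose oxidation, measured 15.3, 11.2 and 14.0 FPKM in HS_AOSFMT, against 5.50, 9.36 and 7.28 FPKM in HS_conFMT (log2 change 0.81, adjusted p = 0.0463). Angptl4 lost its call without HS_AOSFMT 1, HS_AOSFMT 3, HS_conFMT 1 or HS_conFMT 3 (up to 0.0890) and Pdk4 without any but HS_conFMT 2 (up to 0.210) and with totals taken without haemoglobin and acinar genes (0.0688). The carnitine transferase Cpt1a, which admits fatty acids to mitochondria, measured 33.3 ± 2.23 FPKM in HS_AOSFMT and 36.4 ± 3.54 in HS_conFMT.

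Genes of the cholesterol list leaned downward, 17 of 20 being negative with a median of -0.11, 2 called lower and 0 higher. Over all genes tested, 1.04% were called lower and 61.9% were positive. Mevalonate kinase, Mvk, measured 3.07 ± 0.476 FPKM in HS_AOSFMT and 4.86 ± 0.382 in HS_conFMT (log2 change -0.53, adjusted p = 0.0196; up to 0.0846 without HS_AOSFMT 2, HS_AOSFMT 3 or HS_conFMT 1). Srebf2, which drives the pathway, measured 29.5, 30.7 and 34.2 FPKM in HS_AOSFMT, against 36.5, 39.9 and 37.5 FPKM in HS_conFMT without passing the test (adjusted p = 0.116).

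Glycolysis (median 0.10, 14 of 17 positive, 0 called, 3 unadjusted) and oxidative phosphorylation (median 0.03, 13 of 22 positive, 0 called, 4 unadjusted) stayed near the background. Without HS_conFMT 1 these medians were 0.02 and -0.01. All 28 ribosomal protein genes tested were positive, with a median of 0.12, or 0.06 without HS_conFMT 1 and 0.03 with totals taken without haemoglobin and acinar genes, and 0 were called (5 unadjusted). Smooth muscle genes had a median of -0.17 with 0 of 7 called (2 unadjusted) and matrix genes one of -0.15 with 0 of 14 called (2 unadjusted). Without HS_conFMT 2 these medians were -0.01 and 0.01, and without HS_conFMT 3 that of the matrix genes was -0.34. Col1a1, the main fibrillar collagen gene, measured 12.1, 10.7 and 9.2 FPKM in HS_AOSFMT, against 20.4, 19.2 and 11.7 FPKM in HS_conFMT (adjusted p = 0.0726).

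Lists of other tissues held 0 called genes. All 24 acinar genes were negative, with a median of -3.15 that ranged from -4.36 without HS_conFMT 2 to -1.65 without HS_conFMT 3, 0 called and 1 at an unadjusted p under 0.05. In 16 of them the groups did not overlap downward, against 7.27% of all genes tested. Their summed share was up to 0.0119% in HS_AOSFMT and at least 0.0133% in HS_conFMT, without overlap (exact two-sided permutation p = 0.1). Ctrb1, the gene of chymotrypsinogen B, measured 1.77, 0.49 and 8.24 FPKM in HS_AOSFMT, against 54.5, 12.6 and 757 FPKM in HS_conFMT. No islet gene passed the filter. Adipocyte genes had a median of -0.13 (10 tested), which was 0.33 without HS_conFMT 2 and -0.73 without HS_conFMT 3, liver genes one of -1.26 (6 tested), which was -2.28 without HS_AOSFMT 1 and -0.43 without HS_AOSFMT 3, sperm genes 0.09 (4 tested; -0.08 without HS_AOSFMT 2 and 0.17 without HS_AOSFMT 1) and skeletal muscle genes -0.24 (2 tested), each with 0 called and 0 unadjusted.

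Set against diet and STZ without a transplant, HS_AOSFMT differed in 1197 genes (9.23%; 1048 or 8.08% higher and 149 or 1.15% lower) and HS_conFMT in 1 (0.00771%), with 819 at an unadjusted p under 0.05 in the second comparison. Both share the HS libraries, so their log2 changes are given side by side only. Against HS, Stat4 was at 1.58 in HS_AOSFMT and -0.03 in HS_conFMT, and Crem at 1.66 in HS_AOSFMT and 0.01 in HS_conFMT. Pde3b was at 1.26 in HS_AOSFMT and -0.07 in HS_conFMT, and Fkbp5 at 1.29 in HS_AOSFMT and 0.24 in HS_conFMT. Stat4 measured 17.7 ± 2.66 FPKM in HS_conFMT and 18 ± 1.63 FPKM in HS.

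Other genes lay on either side of HS. On the log2 scale against HS, Hspa5 was at 0.42 in HS_AOSFMT (adjusted p = 0.0553) and at -0.36 in HS_conFMT (adjusted p = 0.736), neither being called. Rbm3 was at -0.39 in HS_AOSFMT (adjusted p = 0.133) and at 0.57 in HS_conFMT (adjusted p = 0.61), and its HS level was 255 ± 64.8 FPKM. Il1b was at 0.89 in HS_AOSFMT (adjusted p = 0.0234) and at -0.47 in HS_conFMT (adjusted p = 0.774). Dbp was at 0.54 in HS_AOSFMT (adjusted p = 0.103) and at 1.53 in HS_conFMT (adjusted p = 0.0232), where it was the gene called. The clock repressor Nr1d1 was at 0.91 in HS_AOSFMT (adjusted p = 0.0112) and at 1.18 in HS_conFMT (adjusted p = 0.0649).

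**Figure D5:**
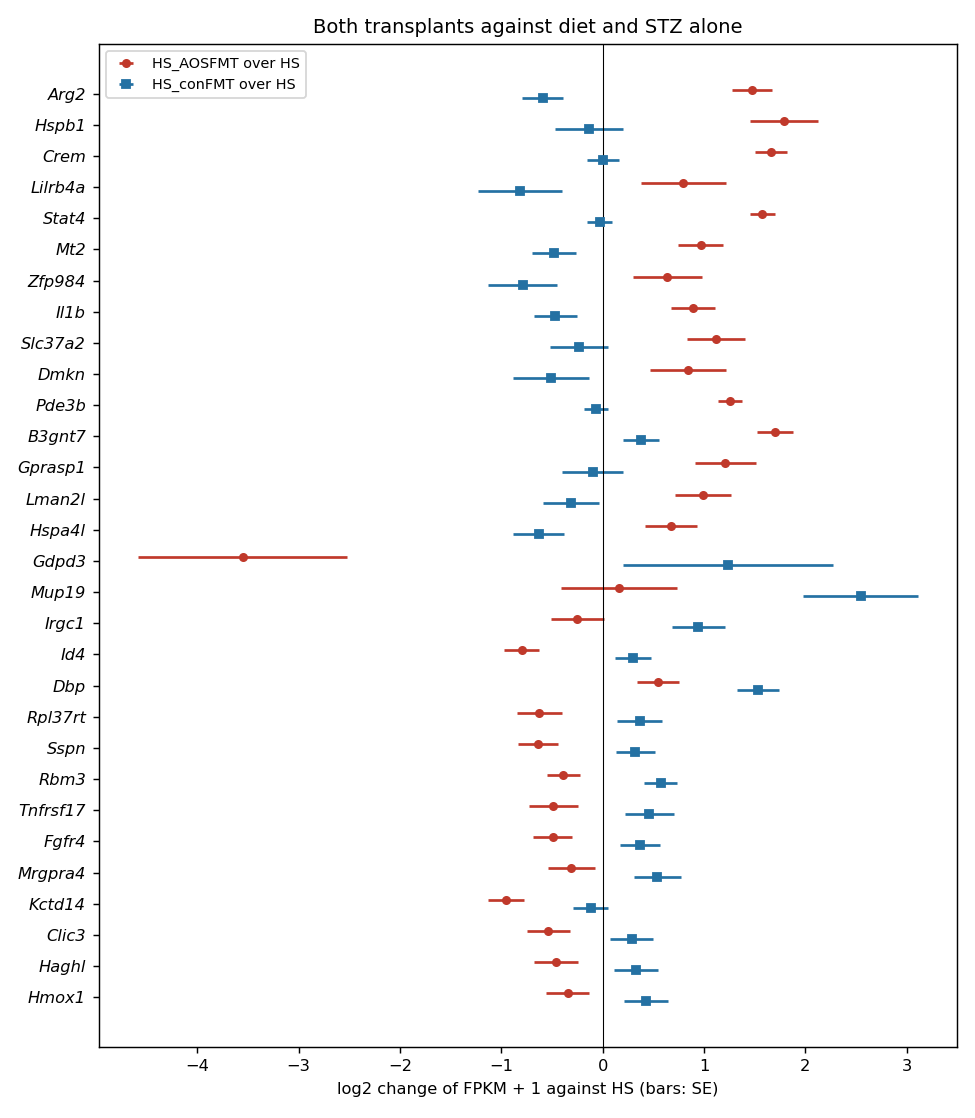
Log2 change of FPKM + 1 against HS (bars, SE) of the 30 genes with the largest called differences, in HS_AOSFMT (red circles) and HS_conFMT (blue squares). Stat4, Crem and Pde3b lie at 1.58, 1.66 and 1.26 in HS_AOSFMT and near 0 in HS_conFMT, whereas Dbp lies at 0.54 in HS_AOSFMT and 1.53 in HS_conFMT.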

How the data were processed

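The deposited table holds FPKM, a unit inferred from its values because no source used here names it: totals weighted by transcript length varied by 1.29% (coefficient of variation) against 6.14% for plain totals, with 18763 symbols (97.1%) matched to GENCODE M21. Per the submitters' processing notes, the aligner was Bowtie 0.12.2 and the build mm10; the counter is not given in the sources used here. Per the labels' protocols, spleens were frozen in liquid nitrogen and RNA was extracted with Trizol and a column. FPKM were used as the authors deposited them.

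limma 3.58.1 (R 4.3.3) modelled log2(FPKM + 1) in all 6 groups at once, for genes that reached 1 FPKM in 3 or more of 18 libraries; eBayes ran with trend and robust (residual df 12, prior df 3.38). All p-values are two-sided, with Benjamini-Hochberg adjustment over the 12969 genes and a threshold of 0.05; it was tested on simulated data. Shares of 3 against 3 libraries were compared by exact permutation, where the smallest possible p is 0.1.

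Genes were named by rule: in each direction the 15 called genes, at most, whose change was largest and with separate groups, predicted genes and receptor segments not being eligible, and from each of 40 lists up to 4 genes with the smallest p and the gene listed first; any other gene was chosen after its values were seen. The members and lists were chosen with earlier results of these data known. In the file, 418 entries were 0 throughout and 26 symbols had become dates. Replicate numbers did not pair the libraries (correlations of deviations -0.204, -0.237 and -0.0615). Alternatives were the pseudocount, the filter, the scaling, the 6 libraries alone, the replicate number as a block, leaving out each library, and covariates added after the data were seen. Some results are not reported here.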

Additional observations from a re-analysis of the deposited data

How the results depend on the processing

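No called gene changed sign under any alternative in which it was tested. In the fits that leave out 1 library, this was bound to hold for the 758 called genes whose groups did not overlap. The count of 759 called genes (624 higher, 135 lower) was 734 and 738 with pseudocounts of 0.1 and 0.5, 629 without the filter, 660 with a mean of at least 5 FPKM and 697 without trend or robust. Scaling moved the split: median ratio scaling gave 772 (469 higher, 303 lower), quantile normalization 704 (454 higher, 250 lower) and totals without haemoglobin and acinar genes 478 (254 higher, 224 lower). With the 6 libraries alone, which leaves fewer degrees of freedom, it was 176 (138 higher, 38 lower) with 2779 at an unadjusted p under 0.05. With the replicate number as a block it was 909 (747 higher, 162 lower) over 18 libraries and 14 (14 higher, 0 lower; 1835 unadjusted) over the 6, though the numbers do not pair the libraries. Leaving out 1 library, which also leaves its group 1 library smaller, gave 199 to 1201 called, 144 to 1042 higher and 36 to 159 lower. Covariates, added after the data were seen, gave 1319 (926 higher, 393 lower) for the erythroid level, 334 (250 higher, 84 lower) for the acinar level and 2151 (1775 higher, 376 lower) for the neutrophil level; the cause of these moves was not tested. Arg2, Hspb1, Crem, Stat4, Il1b, Pde3b and B3gnt7 were called in every alternative that tested them. Id4, Rbm3, Mt2, Mt1, Fkbp5, Zbtb16, Nfil3, Fosl2, Hspa5, Pdia3, Pdia6, Canx and Plin2 were called in every one that tested them but the block over 6 libraries. Depth is unknown, so values near 1 FPKM carry an unknown counting error.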

Other observations

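The gene families below were formed after the values had been seen, so their counts describe these libraries and support nothing further. They stand beside 4.81% called higher, 1.04% called lower and 61.9% positive over all 12969 genes tested. Of 31 tested myeloid receptor genes of the Clec4, Trem, C5a receptor and Toll-like receptor families with Cd14, 7 were called higher and 0 lower, and 22 were positive (median 0.32). Cd14, the co-receptor for bacterial lipopolysaccharide, measured 10.4, 12.5 and 17.4 FPKM in HS_AOSFMT, against 6.38, 5.85 and 4.78 FPKM in HS_conFMT (log2 change 1.09, adjusted p = 0.0018). Clec4d and Clec4e, lectin receptors for microbial glycolipids, rose by 1.02 and 1.10, Trem1, which amplifies such signals, by 0.81, and the RNA sensors Tlr8 and Tlr13 by 0.66 and 0.73. Without 1 library the calls of Cd14 and Clec4d held, whereas Clec4e lost its call without HS_AOSFMT 2 or HS_conFMT 1 (adjusted p up to 0.0690), Tlr13 without HS_AOSFMT 3 or HS_conFMT 1 (0.0681), Trem1 without any but HS_AOSFMT 2 or HS_conFMT 2 (0.127) and Tlr8 whichever library was left out (0.132); the neutrophil share moved with these genes, and its part was not tested.

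Genes of the hypoxia response were called in 8 of 19 cases, all higher (median 0.35). Hilpda, a lipid droplet protein, measured 17.4, 15.4 and 16.0 FPKM in HS_AOSFMT, against 6.17, 9.56 and 8.22 FPKM in HS_conFMT (log2 change 0.96, adjusted p = 0.00343), and the collagen prolyl hydroxylase P4ha2 4.69, 5.14 and 4.91 FPKM in HS_AOSFMT, against 1.70, 2.02 and 2.14 FPKM in HS_conFMT (1.00, adjusted p = 0.00426). Neither overlapped and both held with any 1 library left out. Ero1l, Fam162a, Hif1a, Egln1 and Egln2 lost their calls without 4 or 5 of the 6 libraries (adjusted p up to 0.145, 0.158, 0.145, 0.17 and 0.135), Plod1 without HS_conFMT 1 (0.0506), and Ero1l and Fam162a also under each other scaling tried (0.0877 to 0.164). Beside the folding genes, all 16 subunits of signal peptidase and oligosaccharyl transferase, which process proteins entering the endoplasmic reticulum, were positive and 6 were called higher (median 0.20), among them Spcs3 (52.7 ± 0.711 FPKM in HS_AOSFMT and 39.1 ± 2.66 in HS_conFMT). All 8 tested subunits of the cytosolic chaperonin CCT were positive with 3 called (median 0.28). Of 75 mitochondrial ribosome genes 7 were called higher (median 0.12), of 20 cytosolic tRNA synthetases 4 (median 0.12), and of 30 Mediator subunits 4 higher and 1 lower (median 0.08). Of 325 zinc finger genes named Zfp and a number, 257 were positive, 25 were called higher and 3 lower (median 0.17). Over all genes tested, 61.9% were positive, 4.81% were called higher and 1.04% lower. This zinc finger family of low transcripts includes near-identical copies.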
